A study of Rattus with 6 samples.

Results

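The genes examined here encode the machinery that copies DNA and the enzymes that supply its building blocks. They were 39 genes chosen by symbol, and all 39 were found among the 30211 genes of the count table. They were grouped by role: 14 for loading and using the MCM helicase, 5 for activating it, 7 for polymerases and primase, 7 for the sliding clamp, its loader and the joining of fragments, 4 for deoxynucleotide supply and 2 for copying chromatin. The RNA came from rat bone marrow mesenchymal stem cells (BMSC), stromal cells of the marrow able to make bone, fat or cartilage, labelled as wild type. There were 3 control libraries and 3 from cells given 100 uM dexamethasone, a synthetic glucocorticoid, and all 6 were collected after 4 days. Strain, sex, age, passage and any vehicle for the controls were not given in the sources used here. Whether replicates came from separate cultures was likewise not stated, so each p-value measures only the spread between the 6 samples, and that spread may be technical.

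Before a cell divides, the origin recognition complex (ORC), with Cdc6 and Cdt1, loads the ring of MCM2 to MCM7 subunits onto DNA, a step called licensing. Cdc45 and the GINS complex then join the ring to make the active helicase, named CMG after its parts. Primase and polymerase alpha start each new strand, polymerases epsilon and delta extend it on the clamp PCNA, and Fen1 and Lig1 join the fragments of the lagging strand. Most of these genes are transcribed when cells pass from G1 into S phase, largely under E2F transcription factors, so their RNA is a common sign of cycling cells in culture.

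The libraries held between 34835072 and 41676315 counts. Every sample, controls included, carried DEX as its treatment tag, and groups therefore followed the titles. Fkbp5, a well-known glucocorticoid receptor target, stood at 69.0 to 71.0 CPM in the controls and at 1290.0 to 1430.2 CPM in the libraries titled dexamethasone. Levels are TMM-scaled counts per 1e6 reads (CPM), in which TMM corrects library size for differences in RNA composition. The spread between replicates was small, the common coefficient of variation being 3.66%.

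Replication genes were higher with dexamethasone almost without exception. Of the 39, 38 rose and 1, Orc2, fell, by edgeR's quasi-likelihood test, at an adjusted p (Benjamini-Hochberg, over the 14111 genes tested) under 0.05. Over those genes 32.3% were called higher and 31.7% lower. The median log2 fold change of the 39 was 1.35, against -0.00019 over all tested genes. At least 2-fold rises numbered 28 of 39, where 8.65% of tested genes were called and at least 2-fold higher. Every dexamethasone library lay above every control library for 38 of the 39, as it did for 33.8% of tested genes. In bulk RNA, a larger share of cycling cells and more of this RNA per cell cannot be told apart.

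The 39 genes together took 1003 to 1019 CPM in the controls and 2374 to 2433 CPM with dexamethasone. All 39 passed the filter on low counts, and the lowest value was 49 counts, for Pole2 in a control library. The largest median rise by role was in deoxynucleotide supply (log2 2.12, 4 genes), followed by chromatin replication (1.51, 2 genes) and polymerases and primase (1.41, 7 genes). Licensing and MCM genes had a median of 1.26, clamp and fragment genes 1.02 and CMG activation genes 1.01. The roles overlapped widely in range, and no test was made between them.

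**Figure D1:**
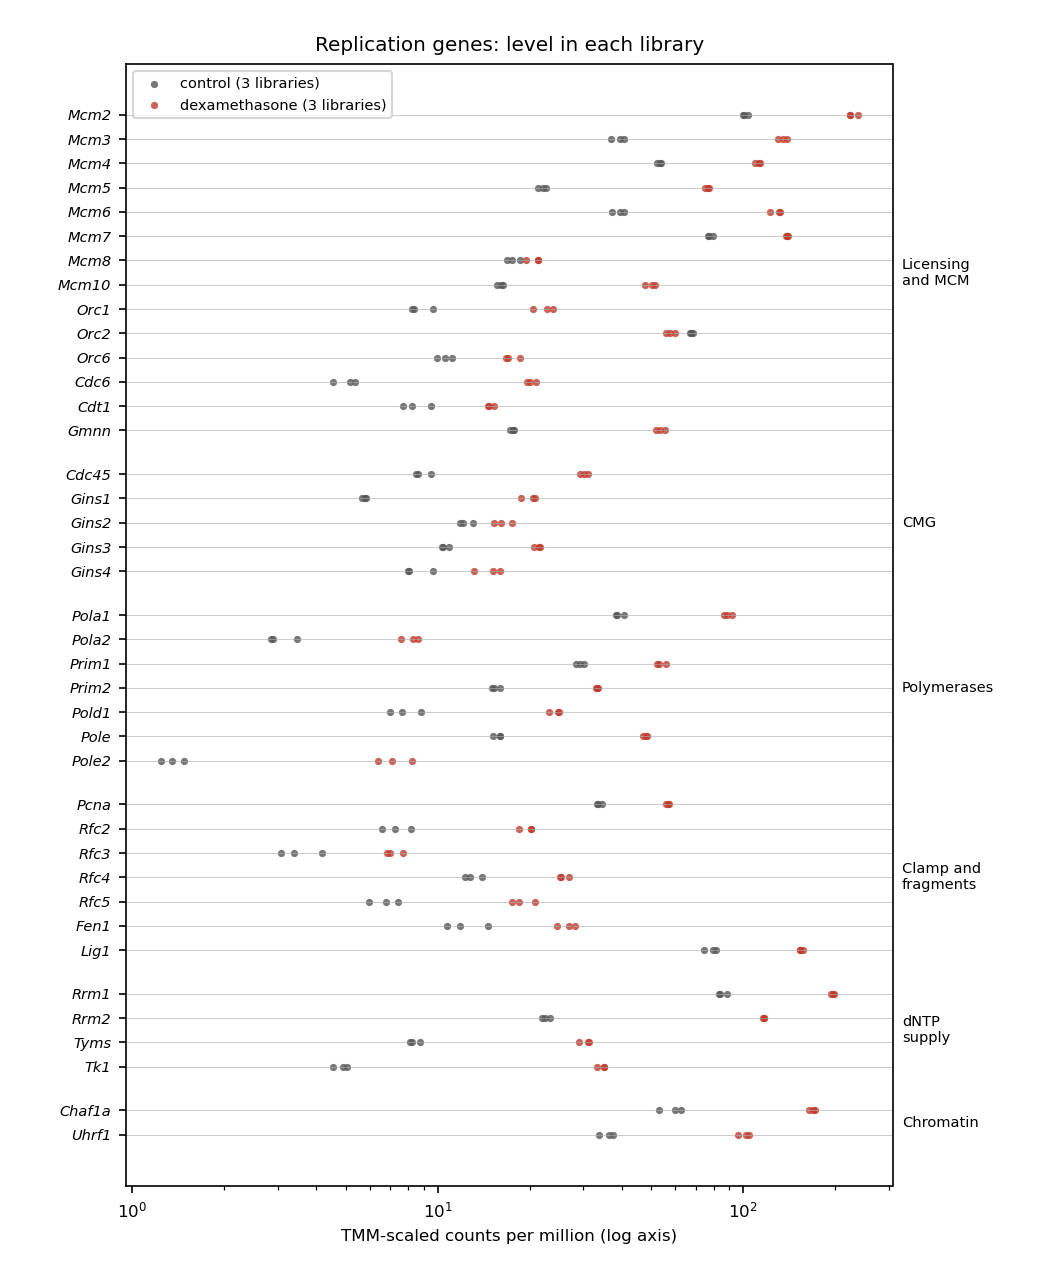
Level of each replication gene in each library, in TMM-scaled CPM on a log axis, with control libraries in grey and dexamethasone libraries in red. The 3 red points lie to the right of the 3 grey points in 38 rows, and only in the row of Orc2 do they lie to the left.

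The 6 subunits of the helicase ring all rose, but by unequal amounts. Mcm5 (chromosome 19, 14523554 to 14561278) had 21.3, 22.2 and 22.6 CPM in control replicates 1 to 3 and 77.6, 77.0 and 75.1 CPM in dexamethasone replicates 1 to 3. Mcm3 (chromosome 9, 26914057 to 26932201) had 39.5, 40.6 and 36.9 CPM in the control libraries and 139, 135 and 129.8 CPM in the dexamethasone libraries. Mcm6 (chromosome 13, 45042882 to 45068077) had 39.6, 37.2 and 40.7 CPM in the control libraries and 132, 122 and 131 CPM in the dexamethasone libraries. In these 3 subunits the groups stood far apart, and their log2 fold changes were 1.80 ± 0.029, 1.79 ± 0.05 and 1.71 ± 0.051 (SE), with adjusted p of 8.1e-33, 2.3e-35 and 1.9e-34.

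The other subunits started higher and rose less. Mcm2 (chromosome 4, 120825699 to 120840111) had 101, 99.6 and 104 CPM in the control libraries and 237, 224 and 224 CPM in the dexamethasone libraries. Mcm4 (chromosome 11, 89511191 to 89524892) had 52.3, 53.4 and 53.9 CPM in the control libraries and 109, 114 and 113 CPM in the dexamethasone libraries. Mcm7 (chromosome 12, 19306607 to 19314016) had 79.7, 77.2 and 76.5 CPM in the control libraries and 139.9, 138 and 139 CPM in the dexamethasone libraries. No control library reached any dexamethasone library in these genes either, and the log2 fold changes were 1.17 ± 0.032, 1.07 ± 0.022 and 0.84 ± 0.018 (SE), with adjusted p of 1.0e-31, 5.0e-28 and 2.2e-25.

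Per kilobase of exon, the subunits drew closer together. In CPM per kilobase, the level of Mcm5, the lowest in all 6 libraries, was 6.74, 7.02 and 7.15 in the controls and 24.5, 24.3 and 23.7 with dexamethasone. Mcm2, at the top with dexamethasone, had 30.9, 30.5 and 31.8 in the controls and 72.7, 68.7 and 68.5 with dexamethasone. The highest subunit exceeded the lowest 4.43 to 4.76 times in the controls and 2.82 to 2.96 times with dexamethasone, ranges that do not overlap. In the order of levels, Mcm2 and Mcm7 could not be separated in the controls, where their libraries overlapped, and Mcm3 and Mcm6 overlapped in both groups. Mcm4 lay above Mcm3 and Mcm6 in the controls and below both with dexamethasone.

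2 further MCM genes encode proteins outside the ring. Mcm8 (chromosome 3, 125470551 to 125500795), which works with Mcm9 in recombination repair, had 17.5, 18.6 and 16.8 CPM in the control libraries and 21.3, 19.5 and 21.4 CPM in the dexamethasone libraries. These groups came close without overlapping, and the rise was 1.18-fold (log2 0.24 ± 0.061 SE, adjusted p = 0.00244). Mcm10 (chromosome 17, 77224112 to 77246478), which helps start the helicase, went from 16.1 ± 0.361 to 49.7 ± 1.85 CPM (SD, n = 3), a log2 fold change of 1.63 ± 0.036 (adjusted p = 2.8e-28). Mcm10 thus moved by an amount within the range of the ring subunits, and Mcm8 by less than any of them.

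Genes of origin recognition moved in both directions. Orc1 (chromosome 5, 128190708 to 128210445), the subunit whose level is known to follow the cell cycle, had 8.25, 9.68 and 8.37 CPM in the control libraries and 23.9, 22.8 and 20.6 CPM in the dexamethasone libraries. Orc2 (chromosome 9, 65350627 to 65387169), a core subunit, had 68.4, 67.6 and 67.1 CPM in the control libraries and 55.8, 57.5 and 59.6 CPM in the dexamethasone libraries. Orc6 (chromosome 19, 27457474 to 27464805), the smallest subunit, had 9.98, 11.1 and 10.6 CPM in the control libraries and 18.7, 17.0 and 16.7 CPM in the dexamethasone libraries. Dexamethasone libraries were all above the controls for Orc1 and Orc6 and all below them for Orc2. The log2 fold changes were 1.35 ± 0.097, -0.23 ± 0.029 and 0.72 ± 0.068 (SE), with adjusted p of 2.5e-19, 2.5e-06 and 6.0e-11. The fall of Orc2 was small, at 0.85-fold of the control level.

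The remaining ORC genes, which are not among the 39 and were named after their values were seen, changed little. Orc3 and Orc4 fell (log2 -0.15 and -0.25, adjusted p = 0.00864 and 2.7e-05) and Orc5 rose (log2 0.29, adjusted p = 0.00942). Per kilobase of exon, Orc4 was the highest ORC gene in all 6 libraries. Its level was 26.8, 28.2 and 25.9 in the controls and 21.9, 23.6 and 22.8 with dexamethasone in CPM per kilobase, while Orc1 had 3.23, 3.79 and 3.28 in the controls and 9.36, 8.92 and 8.05 with dexamethasone.

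The loading factors rose, and so did the inhibitor of loading. Cdc6 (chromosome 10, 86819472 to 86833402), the ATPase that joins ORC at origins, had 5.37, 4.54 and 5.17 CPM in the control libraries and 21.0, 20.1 and 19.6 CPM in the dexamethasone libraries. Cdt1 (chromosome 19, 55381565 to 55386511), which brings in the MCM ring, had 8.27, 9.50 and 7.72 CPM in the control libraries and 14.7, 15.3 and 14.6 CPM in the dexamethasone libraries. Gmnn (chromosome 17, 42302540 to 42310783), which encodes geminin, the protein that binds and blocks Cdt1, had 17.7, 17.7 and 17.2 CPM in the control libraries and 51.7, 55.4 and 53.6 CPM in the dexamethasone libraries. The 3 genes did not overlap between groups, with log2 fold changes of 2.01 ± 0.078, 0.81 ± 0.09 and 1.61 ± 0.031 (SE) and adjusted p of 3.6e-24, 3.9e-11 and 9.3e-29. Cdt1 protein is known to be controlled by degradation, which RNA counts do not measure.

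**Figure D2:**
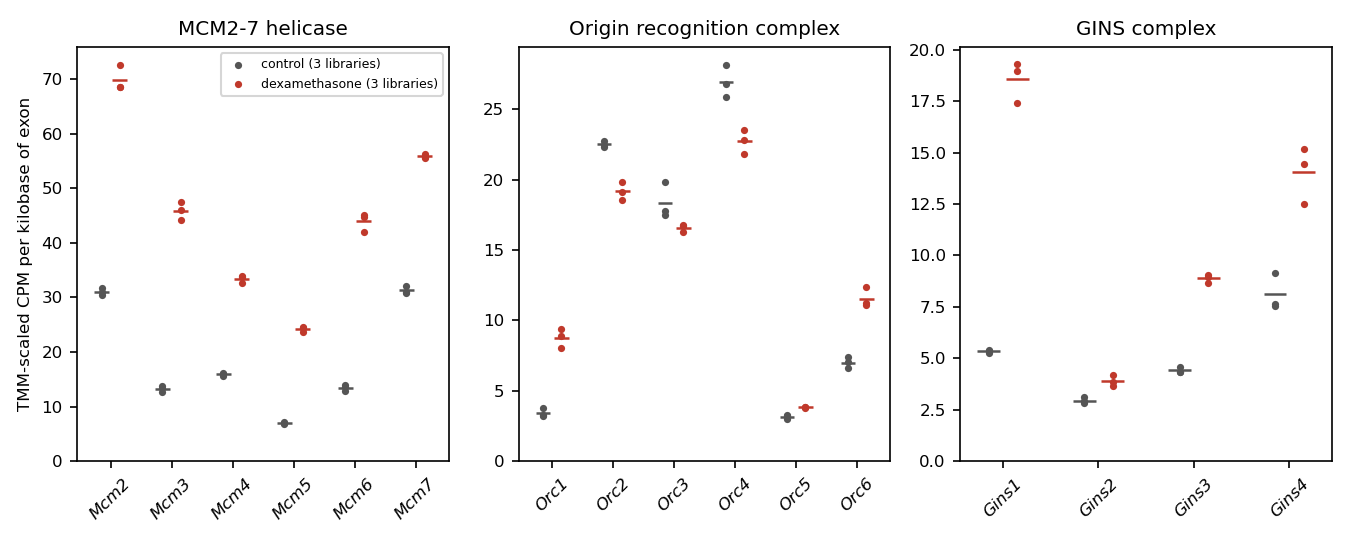
Levels per kilobase of exon (TMM-scaled CPM per kilobase) of the subunits of the MCM ring, the origin recognition complex and GINS, with points for libraries and bars for the mean of 3. The MCM subunits all stand higher with dexamethasone, Orc2, Orc3 and Orc4 stand lower, and Gins1 passes Gins4 to become the highest GINS gene.

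All 5 genes of helicase activation rose. Cdc45 (chromosome 11, 86329012 to 86358453), the C of CMG, had 9.49, 8.64 and 8.52 CPM in the control libraries and 30.0, 31.0 and 29.3 CPM in the dexamethasone libraries. Gins1 (chromosome 3, 146695344 to 146716816), a GINS subunit, had 5.65, 5.78 and 5.82 CPM in the control libraries and 20.8, 20.4 and 18.8 CPM in the dexamethasone libraries. Gins2 (chromosome 19, 54151048 to 54163608), its partner subunit, had 11.8, 13.0 and 12.1 CPM in the control libraries and 17.5, 15.3 and 16.1 CPM in the dexamethasone libraries. The first 2 of these genes stood apart by more than 3-fold, and Gins2 by 1.33-fold, with log2 fold changes of 1.76 ± 0.054, 1.80 ± 0.047 and 0.41 ± 0.07 (SE) and adjusted p of 1.5e-25, 6.0e-23 and 1.3e-05. Gins3 and Gins4, the remaining subunits, went from 10.5 ± 0.303 to 21.2 ± 0.470 CPM and from 8.58 ± 0.951 to 14.8 ± 1.46 CPM (SD, n = 3; log2 1.01 ± 0.03 and 0.79 ± 0.122). Per kilobase, the highest GINS gene exceeded the lowest, Gins2, 2.46 to 3.26 times in the controls and 4.54 to 5.19 times with dexamethasone, so the GINS genes spread where the MCM genes narrowed. Exons listed for Cdc45 cover 1425 bases that are also listed for Cldn5, a gene with 0 counts in all 6 libraries.

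All 7 polymerase and primase genes rose. Pole2 (chromosome 6, 91494393 to 91518996), the second subunit of polymerase epsilon, had the lowest mean level of the 39 in the controls, with 1.48, 1.24 and 1.35 CPM in the control libraries and 8.22, 7.09 and 6.38 CPM in the dexamethasone libraries. Its partner Pole (chromosome 12, 52403529 to 52452040), the catalytic subunit for the leading strand, had 16.0, 16.0 and 15.2 CPM in the control libraries and 47.9, 46.8 and 48.4 CPM in the dexamethasone libraries. Pold1 (chromosome 1, 100537900 to 100554488), the catalytic subunit of polymerase delta, had 7.65, 8.79 and 6.97 CPM in the control libraries and 24.7, 25.0 and 23.1 CPM in the dexamethasone libraries. The groups of these 3 genes did not overlap, and the log2 fold changes were 2.41 ± 0.126, 1.60 ± 0.028 and 1.63 ± 0.103 (SE), with adjusted p of 2.0e-18, 5.4e-28 and 2.9e-22.

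The genes that start strands rose by less than these. Pola1, the catalytic subunit of polymerase alpha, went from 39.3 ± 1.27 to 89.1 ± 2.88 CPM (SD, n = 3), and Pola2, its accessory subunit, from 3.07 ± 0.345 to 8.18 ± 0.525 CPM. Prim1, the primase that makes the RNA primer, went from 29.3 ± 0.874 to 53.7 ± 1.98 CPM, and Prim2, its large subunit, from 15.4 ± 0.503 to 33.2 ± 0.212 CPM. Their log2 fold changes were 1.18 ± 0.038, 1.41 ± 0.104, 0.88 ± 0.039 and 1.10 ± 0.027 (SE), with adjusted p between 9.8e-28 and 8.8e-14. Pola2 lay 13.9 to 17.5 times below Prim1 per kilobase in the controls and 10.4 to 11.5 times below it with dexamethasone. Exons of Pola2 share 155 bases with Cdc42ep2, which was at 0.355 to 0.782 CPM.

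All 7 clamp, clamp loader and fragment-joining genes rose, with none reaching 3-fold. Pcna (chromosome 3, 124880698 to 124884570), the sliding clamp, had 33.3, 33.4 and 34.5 CPM in the control libraries and 56.0, 56.7 and 57.0 CPM in the dexamethasone libraries. Lig1 (chromosome 1, 75356220 to 75394758), the ligase that seals fragments, had 74.3, 81.3 and 79.9 CPM in the control libraries and 153, 157 and 154 CPM in the dexamethasone libraries. Fen1 (chromosome 1, 226251518 to 226255886), the nuclease that trims flaps, had 11.8, 14.6 and 10.7 CPM in the control libraries and 28.1, 24.6 and 26.9 CPM in the dexamethasone libraries. Relative to its level Fen1 varied most between controls of these 3, and still no control reached a dexamethasone library. The log2 fold changes were 0.75 ± 0.018, 0.98 ± 0.042 and 1.10 ± 0.143 (SE), with adjusted p of 7.9e-19, 2.5e-27 and 3.0e-12. Exons of Fen1 share 507 bases with AABR07006258.1, a gene on the opposite strand that rose by 1.02 on the log2 scale, and reads of the pair cannot be told apart.

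The small subunits of the clamp loader, replication factor C, kept their order per kilobase in all 6 libraries, Rfc4 above Rfc2, Rfc5 and Rfc3. Rfc4 went from 13.0 ± 0.889 to 25.8 ± 0.992 CPM, Rfc2 from 7.34 ± 0.795 to 19.7 ± 1.06 CPM, Rfc5 from 6.72 ± 0.730 to 18.9 ± 1.68 CPM and Rfc3 from 3.54 ± 0.571 to 7.17 ± 0.465 CPM (SD, n = 3). Their log2 fold changes were 0.99 ± 0.064, 1.42 ± 0.1, 1.49 ± 0.116 and 1.02 ± 0.140 (SE), with adjusted p of at most 1.7e-09. Rfc1, the large subunit, was not among the 39 and rose by 0.40 on the log2 scale, from 113 ± 1.89 to 149 ± 3.04 CPM.

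All 4 deoxynucleotide supply genes at least doubled, and Tk1 rose more than any other of the 39. Tk1 (chromosome 10, 106817601 to 106828884), the cytosolic thymidine kinase of S phase cells, had 4.54, 5.04 and 4.90 CPM in control replicates 1 to 3 and 35.0, 34.9 and 33.3 CPM in dexamethasone replicates 1 to 3. Rrm2 (chromosome 6, 43884678 to 43889515), the radical-bearing subunit of ribonucleotide reductase, had 21.9, 22.4 and 23.3 CPM in the control libraries and 117, 117 and 117 CPM in the dexamethasone libraries. Tyms (chromosome 9, 121918947 to 121931564), which makes thymidylate, had 8.09, 8.77 and 8.22 CPM in the control libraries and 28.9, 31.0 and 31.3 CPM in the dexamethasone libraries. Rrm1 (chromosome 1, 167538263 to 167562688), the large subunit of the reductase, had 88.2, 83.3 and 84.1 CPM in the control libraries and 199, 194 and 197 CPM in the dexamethasone libraries. Replicates lay close together beside these gaps, and the rises were 7.12-fold, 5.18-fold, 3.63-fold and 2.31-fold. The log2 fold changes were 2.83 ± 0.05, 2.37 ± 0.026, 1.86 ± 0.05 and 1.21 ± 0.027 (SE), with adjusted p of 3.2e-32, 2.8e-39, 2.6e-26 and 5.6e-32. Per kilobase, Rrm2 went from 19.2 to 99.7 CPM per kilobase and Rrm1 from 22.1 to 51.0, so the order of the 2 subunits turned over.

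Both genes that act on chromatin behind the fork rose. Chaf1a (chromosome 9, 11001129 to 11027506), the large subunit of the chromatin assembly factor that deposits histones on new DNA, had 53.0, 59.9 and 62.7 CPM in the control libraries and 172, 169 and 165 CPM in the dexamethasone libraries. Uhrf1 (chromosome 9, 10738222 to 10757954), which reads half-methylated DNA and recruits the maintenance methyltransferase, had 36.4, 33.7 and 37.5 CPM in the control libraries and 104, 102 and 96.1 CPM in the dexamethasone libraries. Both genes lay on chromosome 9 and neither overlapped between groups. Their log2 fold changes were 1.53 ± 0.075 and 1.49 ± 0.058 (SE), with adjusted p of 1.6e-21 and 5.7e-31.

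**Figure D3:**
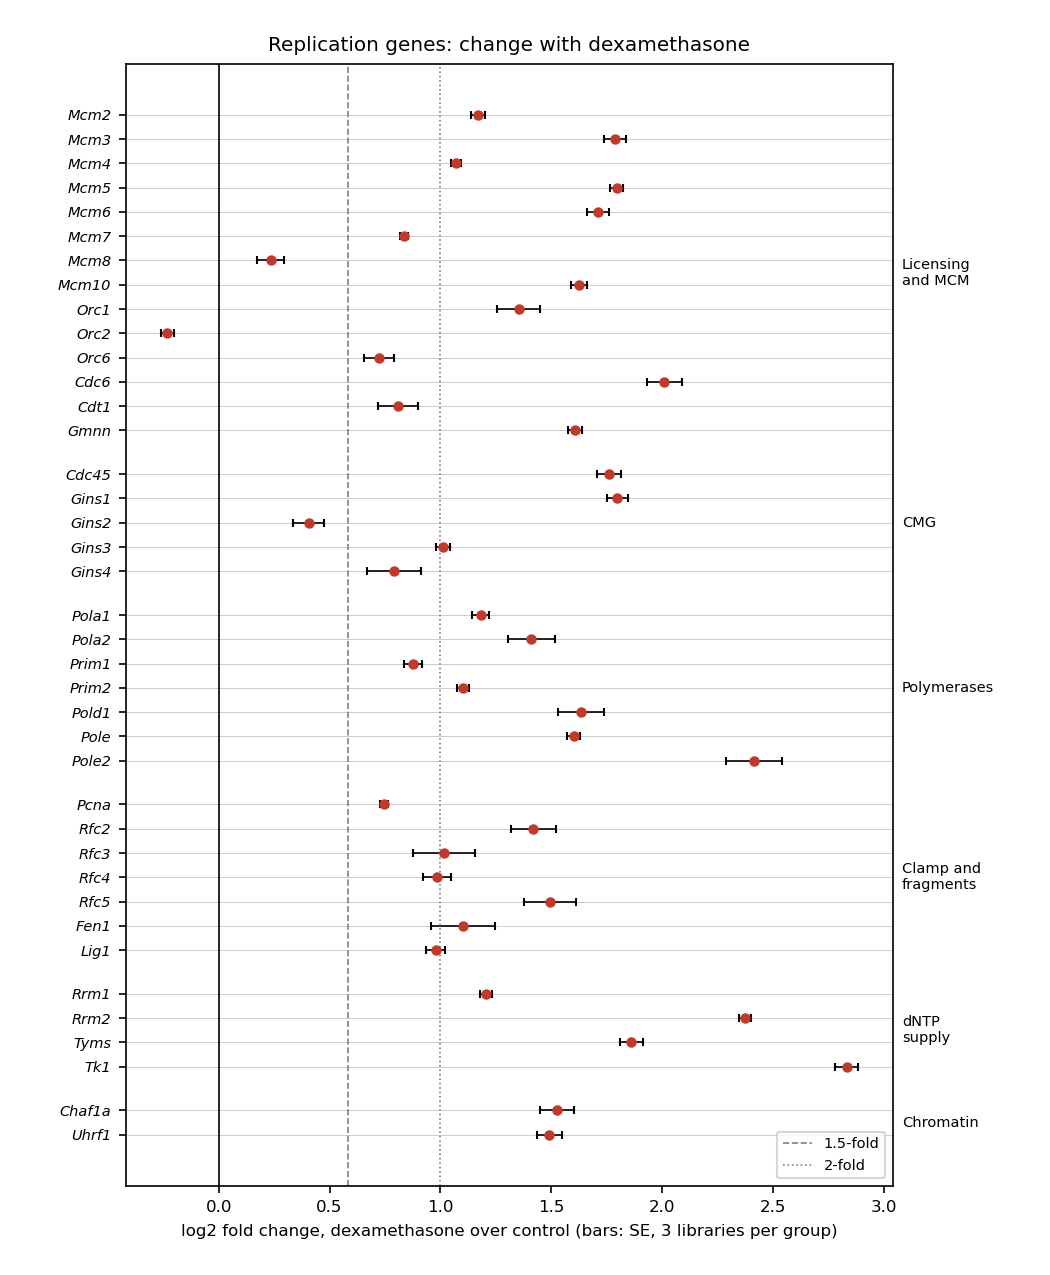
Log2 fold change (dexamethasone over control) of each replication gene, with bars for the SE from 3 libraries per group and dashed and dotted lines at 1.5-fold and 2-fold. Tk1 lies farthest right at 2.83, Orc2 alone lies left of 0 at -0.23, and Mcm8 and Gins2 are the other two genes left of the 1.5-fold line.

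The genes with the smallest changes lost their call under stricter settings. When the test was against a fold of 1.5 rather than against no change, 35 of the 39 passed as higher and 0 as lower, where 11.0% of all tested genes passed as higher. The 4 that did not pass were Mcm8, Orc2, Gins2 (adjusted p = 1 for each) and Orc6 (adjusted p = 0.0583). With the coefficient of variation between replicates set to 0.2, far above the 3.66% estimated here, 36 passed as higher, where 14.1% of tested genes did. Mcm8, Orc2 and Gins2 did not pass at that setting (adjusted p = 0.569, 0.568 and 0.241).

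Ratios of partner genes within a library do not depend on how libraries are scaled, and 20 pairs were compared. In 18 pairs the ratios of the 2 groups did not overlap. Over all pairs of tested genes with counts in every library, 66.5% did not overlap, so lack of overlap by itself says little about a pair, and the sizes of the shifts are given. An exact two-sided permutation test of 3 against 3 libraries cannot give a p below 0.1, which these 18 pairs reached (adjusted over the 20 pairs, 0.111), so none could pass 0.05. Ratios are of counts per kilobase of exon.

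In nucleotide supply, the S phase enzymes stood higher against their partners in every dexamethasone library than in any control. The ratio of Rrm2 to Rrm1 was 0.816, 0.881 and 0.911 in the controls and 1.93, 1.97 and 1.96 with dexamethasone. Rrm2 over Rrm2b, the alternative small subunit that serves outside S phase, was 1.96, 2.08 and 1.99 in the controls and 7.78, 8.47 and 8.15 with dexamethasone. Tk1 over Tk2, the mitochondrial thymidine kinase, was 0.305, 0.338 and 0.358 in the controls and 3.59, 2.99 and 3.09 with dexamethasone, the largest shift of the 20 pairs at 3.27 ± 0.105 (SE) on the log2 scale. Tk1 was thus below its mitochondrial counterpart in every control library and above it in every dexamethasone library.

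In licensing, Cdt1 stood lower against geminin in all 3 dexamethasone libraries than in any control. Cdt1 over Gmnn was 0.246, 0.282 and 0.236 in the controls and 0.150, 0.145 and 0.143 with dexamethasone, a log2 shift of -0.80 ± 0.08 (SE). Orc1 over Orc2 was 0.142, 0.169 and 0.147 in the controls and 0.504, 0.466 and 0.406 with dexamethasone, a shift of 1.59 ± 0.119, and Orc6 over Orc2 shifted by 0.95 ± 0.092. Within the ring, Mcm5 over Mcm7 shifted by 0.96 ± 0.044, Mcm2 over Mcm3 by -0.62 ± 0.059 and Mcm4 over Mcm6 by -0.64 ± 0.063. Mcm8 over Mcm2 shifted by -0.94 ± 0.071.

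For several complexes, the ratio of catalytic to accessory or partner subunits also differed between groups without overlap. Pole over Pole2 was 2.58, 3.08 and 2.69 in the controls and 1.39, 1.58 and 1.81 with dexamethasone, a log2 shift of -0.81 ± 0.134 (SE), and Pold1 over Pold2, its second subunit, was 0.198, 0.257 and 0.210 in the controls and 0.420, 0.423 and 0.424 with dexamethasone, a shift of 0.94 ± 0.113. Gins1 over Gins3 shifted by 0.79 ± 0.064 and Rfc2 over Rfc1 by 1.03 ± 0.117. Prim1 over Prim2 and Pola1 over Pola2 shifted by smaller amounts, -0.23 ± 0.048 and -0.23 ± 0.071. Chaf1a over Chaf1b, its partner in the assembly factor, was 43.1, 34.7 and 48.4 in the controls and 19.3, 22.4 and 19.6 with dexamethasone, with Chaf1b at only 0.957 ± 0.182 to 5.59 ± 0.476 CPM (SD, n = 3). The 2 pairs whose groups overlapped were Pole over Pold1 (shift -0.04 ± 0.092, exact permutation p = 0.8) and Fen1 over Lig1 (shift 0.13 ± 0.140, exact permutation p = 0.5).

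**Figure D4:**
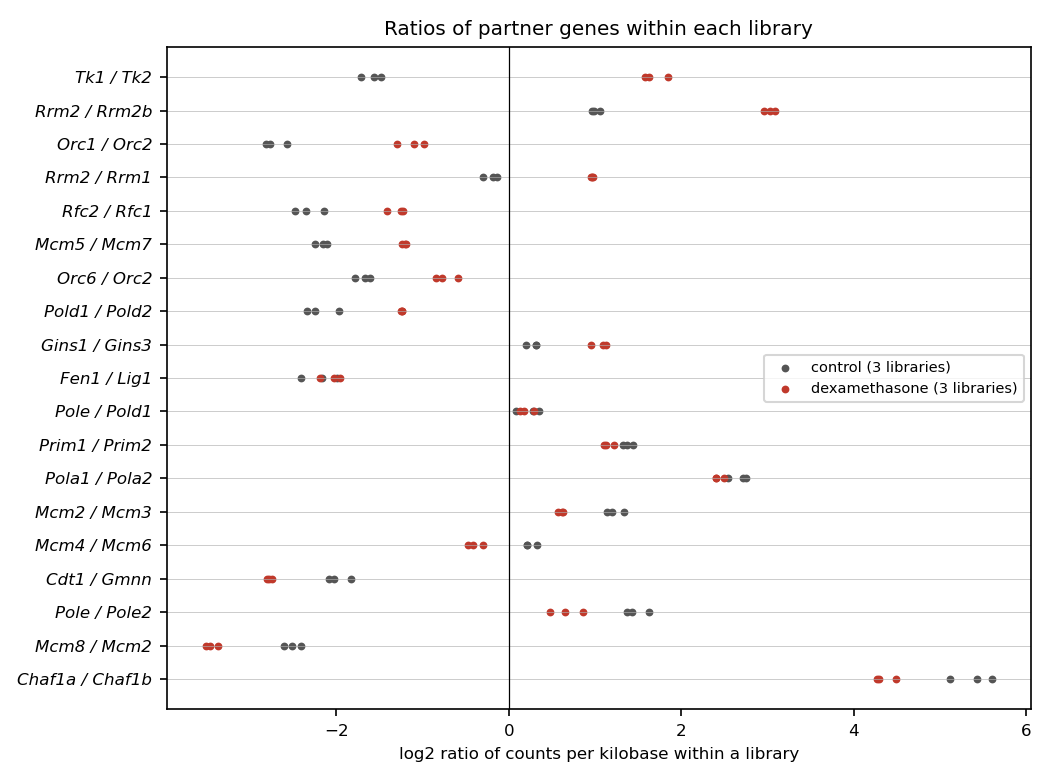
Log2 ratio of counts per kilobase for 19 of the 20 pairs of partner genes in each library, ordered by the difference between groups. The groups do not overlap in 17 of these pairs and overlap for Fen1 over Lig1 and Pole over Pold1. The points of Tk1 over Tk2, Rrm2 over Rrm1 and Mcm4 over Mcm6 change side of 0.

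Most replication genes outside the 39 rose too. There were 31 that rose, 5 that fell and 6 that did not pass among 42 tested, and their median log2 change was 0.79. Over all tested genes 32.3% were called higher and 31.7% lower. Clspn, which encodes the fork checkpoint adaptor claspin, went from 22.9 ± 0.248 to 103 ± 3.73 CPM (SD, n = 3; adjusted p = 4.2e-37), Top2a, the topoisomerase of dividing cells, from 272 ± 2.09 to 618 ± 13.0 CPM, and Topbp1, a scaffold for helicase activation, from 27.1 ± 0.577 to 82.5 ± 1.87 CPM. The falls with the smallest p were Pold4, a small subunit of polymerase delta (log2 -0.55 ± 0.079 SE), and the topoisomerases Top1 (-0.24 ± 0.041) and Top2b (-0.15 ± 0.019). None of the 5 falls passed with the coefficient of variation set to 0.2 or against a fold of 1.5.

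Of the other deoxynucleotide genes, 6 of 13 rose and 4 fell, and 3 did not pass (median log2 change 0.072). Over all tested genes 32.3% were called higher and 31.7% lower, and the share of this list that fell was near the latter. Samhd1, an enzyme that breaks down deoxynucleoside triphosphates, rose from 2.41 ± 0.138 to 9.71 ± 1.07 CPM (SD, n = 3), and Dut, which clears dUTP, from 23.9 ± 0.933 to 41.3 ± 1.26 CPM. Slc29a1, a nucleoside transporter, fell from 16.3 ± 0.199 to 9.85 ± 0.393 CPM, Cmpk1, a nucleoside monophosphate kinase, from 57.0 ± 2.33 to 46.8 ± 0.300 CPM, and Tk2 from 15.6 ± 0.759 to 11.6 ± 1.04 CPM. Rrm2b rose by 0.36 on the log2 scale (adjusted p = 1.1e-04).

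Genes that build purines and pyrimidines from small precursors went in both directions. There were 12 that rose, 7 that fell and 4 that did not pass among 23 tested, and their median log2 fold change was 0.19. The share that fell was near the 31.7% of all tested genes called lower, where 32.3% were called higher. Mthfd1, a cytosolic folate enzyme, rose from 109 ± 1.36 to 184 ± 5.05 CPM (SD, n = 3), Prps1, which makes the ribose donor, from 49.7 ± 0.238 to 71.2 ± 1.15 CPM, and Gart, a purine synthesis enzyme, from 58.0 ± 1.73 to 79.8 ± 2.16 CPM. The mitochondrial folate genes went the other way: Shmt2 fell from 189 ± 3.22 to 73.6 ± 1.32 CPM, Mthfd2 from 109 ± 2.50 to 36.5 ± 3.43 CPM and Mthfd1l from 95.3 ± 3.81 to 62.9 ± 4.45 CPM. Their adjusted p were 7.9e-34, 2.2e-24 and 5.7e-15.

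**Figure D5:**
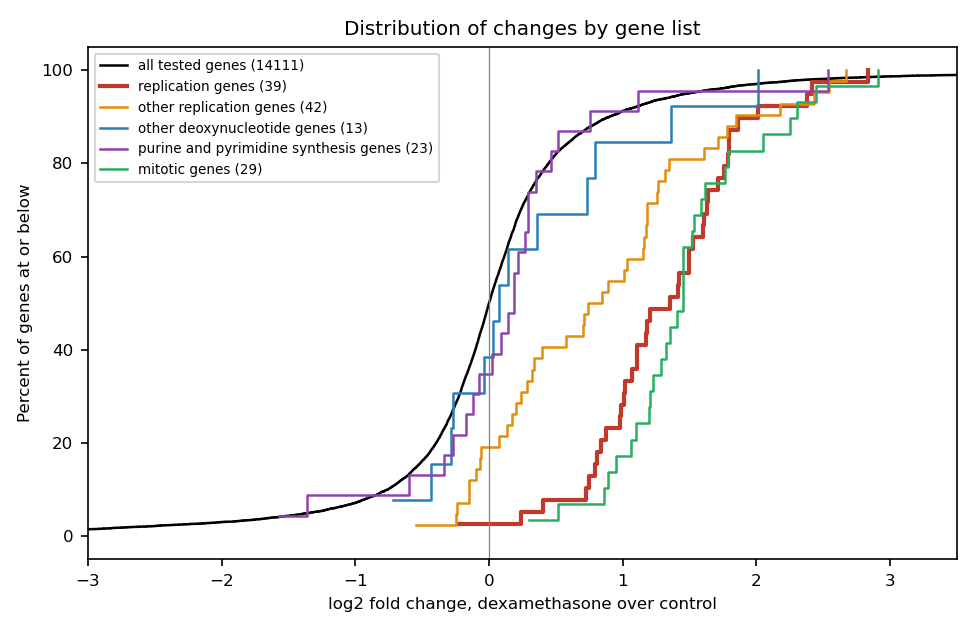
Cumulative share of genes (percent) against log2 fold change for all 14111 tested genes, the 39 replication genes and 4 other lists. The replication and mitotic curves lie to the right with medians of 1.35 and 1.45, and the curve of purine and pyrimidine synthesis, with a median of 0.19, runs near that of all genes.

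Other cell cycle genes moved beside the 39. The counts of each list stand beside 32.3% of all tested genes called higher and 31.7% called lower. All 29 tested mitotic genes rose, by a median log2 change of 1.45. Cenpe and Birc5, which act at the centromere, rose by 1.61 and 2.44. Repair and checkpoint genes rose in 24 of 27 cases (median 0.97), while Tp53bp1 and Atr fell by small amounts (log2 -0.33 and -0.15) and 1 gene did not pass. Atr lost its call without control replicate 2 (adjusted p = 0.111), dexamethasone replicate 2 (0.0503) or dexamethasone replicate 3 (0.223). Mki67, a marker of cycling cells, went from 202 ± 7.42 to 963 ± 2.55 CPM (SD, n = 3), and Fanci and Brca1, which act in repair of damaged forks, rose by 1.71 and 1.52 on the log2 scale. Regulators of entry into S phase numbered 26 tested, of which 21 rose, 3 fell and 2 did not pass (median 0.87). Mybl2, E2f6 and E2f8, transcription factors of the cell cycle, rose by 1.92, 2.02 and 2.89, while Myc fell from 50.6 ± 1.66 to 34.6 ± 1.92 CPM and Rb1 and E2f3 were just past the threshold (log2 -0.16 and -0.15, adjusted p = 0.0358 and 0.0391). Neither passed by DESeq2 (adjusted p = 0.0545 and 0.0585), and neither passed without control replicate 1 (0.0657 and 0.111), control replicate 3 (0.105 and 0.0558) or dexamethasone replicate 3 (0.169 and 0.117). Rb1 was also lost without dexamethasone replicate 1 (0.102), and E2f3 without control replicate 2 (0.0504) or dexamethasone replicate 2 (0.194). With the coefficient of variation set to 0.2 or against a fold of 1.5, none of these falls passed, those of Myc and Tp53bp1 included. No test was made between these lists and the 39.

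Markers of cell types were read beside these changes. Over all tested genes 32.3% were called higher and 31.7% lower, and the short marker lists were not tested against these shares. The 11 marrow stroma markers in the table summed to 7412 to 7439 CPM in the controls and 2654 to 2677 CPM with dexamethasone, with 4 called higher, 6 lower and 1 not passing, and none was at 0 in all 6 libraries. Most of the difference in that sum lay in Grem1, a secreted BMP antagonist, which fell from 3669 ± 13.1 to 113 ± 1.70 CPM (SD, n = 3). Prrx1 fell from 727 ± 19.2 to 75.6 ± 2.51 CPM and Pdgfrb from 616 ± 11.8 to 137 ± 7.94 CPM. Pdgfra, a growth factor receptor, rose from 598 ± 2.59 to 965 ± 20.2 CPM. The 15 macrophage and leukocyte markers summed to 13.9 to 14.5 CPM and 10.3 to 10.7 CPM (9 tested, 1 higher and 4 lower), with Adgre1, Tyrobp and Laptm5 at 0 counts in all 6 libraries. The 9 endothelial markers summed to 7.37 to 8.09 CPM and 5.14 to 6.11 CPM (3 tested, 1 higher and 2 lower), with Emcn and Cldn5 at 0. All 1425 bases listed for Cldn5 are also listed for Cdc45. Reads of overlapping genes cannot be told apart here, so the 0 of Cldn5 cannot be read as absence. The 9 erythroid markers summed to 0.900 to 1.14 CPM and 0.510 to 0.567 CPM (2 tested, 0 higher and 1 lower), with Slc4a1, Hbb and Gata1 at 0. The 3 non-stromal sums were thus low in both groups and lower with dexamethasone. The largest part of the leukocyte sum was Cd14, at 7.27 CPM in the controls and 7.65 CPM with dexamethasone, which did not pass. The largest part of the endothelial sum was Egfl7, which fell from 5.94 to 3.94 CPM, while Tek rose by 0.81 on the log2 scale. The part of any of these markers in the rise of replication genes was not tested.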

How the data were processed

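RNA sequencing counts were analysed for 3 control and 3 dexamethasone libraries. The authors deposited 1 table of raw counts, with exon coordinates and exon length beside each gene, per the file headers. Aligner, counter and strand setting: not given in the sources used here. The submitters' processing notes name mm10, a mouse build, yet the symbols are those of rat. RefSeq's rat genes (GRCr8) place all 39 on the same chromosome as the table does. Coordinates are printed as deposited, in a rat build not given in the sources used here. Without a stated strand, reads of overlapping genes cannot be told apart.

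Counts were filtered with filterByExpr (14111 of 30211 genes kept), scaled by TMM, then fitted by robust quasi-likelihood (edgeR 4.0.16, R 4.3.3), with no covariate and Benjamini-Hochberg adjustment over all tested genes. SEs came from log2 CPM (prior count 2). Alternatives used DESeq2 1.42.0 and limma 3.58.1. Log2 ratios of gene pairs used deposited counts per kilobase and exact permutation tests (scipy 1.17.1). Genes named outside the 39 were the 3 called genes with the smallest p in each direction of each list, the genes of the pairs and Mki67, unless stated, and some of these are not reported here. The members and lists were chosen with earlier results of these data known.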

Additional observations from a re-analysis of the deposited data

How the results depend on the processing

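The log2 fold changes of the 39 genes were recomputed under 15 alternatives: DESeq2 size factors, library size alone, no filter on low counts, a mean of at least 1 CPM, DESeq2, limma-voom, a replicate block, a coefficient of variation set to 0.2, a test against a fold of 1.5, and leaving out each of the 6 libraries. Of 585 gene and setting combinations, 578 kept direction and call, 7 lost the call (given above) and 0 reversed. Over all genes, 1993 were called higher and 1700 lower with the coefficient of variation set to 0.2, and 1549 and 1278 against a fold of 1.5, from 4559 and 4468. The call of the 1 falling gene, Orc2, was lost under both, leaving 0. The median log2 fold change of the 39 ranged from 1.31 to 1.42 with 1 library left out, and 38 genes rose and 1 fell in each of these fits. Between 1.35 and 1.39 was found under the other settings run. Among regulators of S phase entry, 1 gene was called lower in place of 3 with library size alone, no filter on low counts or DESeq2, and among repair genes 1 in place of 2 with library size alone. Both lists had 0 genes called lower with the coefficient of variation set to 0.2 or against a fold of 1.5. Library size alone moved the median of all genes by 0.038.

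Same-numbered replicates did not deviate together (correlations of 0.003, -0.008 and 0.020), and dexamethasone replicate 2 correlated best with control replicate 1 (0.031). With so small a spread between replicates, such correlations cannot exclude that same-numbered samples shared a culture or day. Whether the numbers pair samples was not stated. With a replicate block, 4553 genes were called higher and 4438 lower, and 38 and 1 of the 39. With 1 count added, 18 pairs again had ratios that did not overlap, and 18 pairs differed in 1 direction within all 3 replicate numbers. The share of promoters holding motifs, listed as a planned result, was not run, since promoter sequences were not used here. Depth limits most the genes with few counts, among them Pole2, Chaf1b, Cdkn1c and Pxmp2.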

Other observations

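The starts of 7 of the 39 genes lay 97 to 543 bases from the start of a gene on the opposite strand, in the coordinates of the table, a search within 1000 bases that was chosen after the data were seen. Of these 7 neighbours, 2 rose, 2 fell and 3 did not pass. Among all tested genes 32.3% were called higher and 31.7% lower, so these counts do not set the neighbours apart. Prkdc, which encodes the catalytic subunit of a repair kinase and starts 320 bases from Mcm4, rose by 0.36 on the log2 scale, against 1.07 for Mcm4. Pxmp2, next to Pole, rose by 1.05 from under 1 CPM. Trmt6, next to Mcm8, and Ufd1, next to Cdc45, fell by 0.093 and 0.16 on the log2 scale. Ap4m1 starts 235 bases from Mcm7 and stood at 4.90 to 5.37 CPM in the controls and 4.88 to 5.47 CPM with dexamethasone (adjusted p = 0.994), while Mcm7 rose in all 3 libraries. Vps35, next to Orc6, and Afmid, next to Tk1, did not pass (adjusted p = 0.335 and 0.0894). Promoter sequences were not used here, and whether these pairs share regulatory DNA was not tested.

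The list of regulators of S phase entry holds inhibitors of cyclin-dependent kinases. Cdkn1a, which encodes p21, went from 14.3 ± 1.48 to 27.9 ± 2.62 CPM (SD, n = 3), Cdkn1c, which encodes p57, from 1.42 ± 0.174 to 3.76 ± 0.683 CPM, and Cdkn2c from 3.82 ± 0.304 to 8.64 ± 0.272 CPM, with adjusted p of 5.0e-14, 7.3e-09 and 2.4e-12 (edgeR's quasi-likelihood test, Benjamini-Hochberg). Cdkn1b, which encodes p27, rose by 0.23 on the log2 scale, and Cdkn2a was at 0 counts in all 6 libraries. Of the pocket protein genes, Rbl1 and Rbl2 rose by 0.76 and 1.02, and Rb1 went the other way (log2 -0.16, adjusted p = 0.0358, lost under several settings). These genes were singled out after their values were seen.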
